A study of Mus musculus with 20 samples.

Results

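An antibody against the chemokine CXCL10 was compared with a control antibody in subcutaneous HEPA1-6 tumors that received no GSK343, an inhibitor of the histone methyltransferase EZH2. HEPA1-6 is a mouse hepatoma line, and it was grown under the skin of C57/BL6 mice for 4 weeks before poly-A RNA was sequenced. The comparison was defined by the sample labels: 5 libraries titled "Ant-CXCL10 Antibody" (replicates 1 to 5) against 4 titled "Control Antibody" (replicates 1, 2, 3 and 5). These are 9 of the 20 samples of the series and 9 of the 19 analysed here. It was picked with earlier results of these data known. Control replicate 4 was not analysed here. All 9 tumors share the cell line, the host strain and the absence of the drug. The other 10 libraries are control antibody plus GSK343 (n = 5) and anti-CXCL10 plus GSK343 (n = 5), and they served to estimate the spread and for one side-by-side comparison. The sources used here do not give the dose, route, schedule or isotype of the antibody, nor the age of the mice. Whether each tumor came from its own mouse is not stated, and the p-values therefore reflect the spread among these libraries only, some of which may be technical.

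CXCL10 is a small secreted chemokine that cells make when they are exposed to interferon. Together with CXCL9 and CXCL11 it binds CXCR3, a receptor on activated T cells and natural killer (NK) cells, and draws those cells towards the site where the chemokine is made. An antibody against CXCL10 binds the secreted protein, so the level of the Cxcl10 transcript does not tell how much protein was blocked.

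The S numbers in the sample descriptions run from S1 to S10 over the control-antibody groups, with and without GSK343, and start again at S1 for the anti-CXCL10 groups. The labels do not say what the numbers stand for. If the restart marks a separate run or preparation, that step coincides with the antibody and the 2 cannot be told apart in any difference given here, and no comparison within one numbering was possible. Values are deposited FPKM, that is, fragment counts scaled by the length of the gene and the size of the library. FPKM summed to between 569370 and 609701 per control library and to between 533606 and 629679 per anti-CXCL10 library, with replicate 2 of anti-CXCL10 lowest. Sequencing depth is unknown. The correlation of log2(FPKM + 1) across genes was 0.965 to 0.973 between control libraries, 0.949 to 0.977 between anti-CXCL10 libraries and 0.957 to 0.977 between libraries of different groups, ranges that overlapped. Alb, which encodes albumin, and Afp, which encodes alpha-fetoprotein, both products of hepatoma cells, averaged 3004 and 2282 FPKM with control antibody and 3579 and 2623 FPKM with anti-CXCL10.

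The promoters of the antibody's target gene and of its neighbour Cxcl9 are shown because the 2 transcripts were high and low in much the same libraries, as described below. They are the 250 bases before the start site on the minus strand of mouse chromosome 5, chr5:92348890-92349139 for Cxcl10 and chr5:92328080-92328329 for Cxcl9, from RefSeq (build GRCm38.p6). Capitals mark matches to the interferon-stimulated response element core (GAAA, any 2 bases, GAAA) or to the NF-kB consensus, searched on both strands together with the gamma-activated sequence TTCNNNGAA.
Cxcl10: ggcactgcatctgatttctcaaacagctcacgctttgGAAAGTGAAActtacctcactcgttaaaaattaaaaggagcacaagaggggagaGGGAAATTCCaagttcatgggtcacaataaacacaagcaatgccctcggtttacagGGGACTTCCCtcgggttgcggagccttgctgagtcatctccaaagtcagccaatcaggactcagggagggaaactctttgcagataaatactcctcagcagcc
Cxcl9: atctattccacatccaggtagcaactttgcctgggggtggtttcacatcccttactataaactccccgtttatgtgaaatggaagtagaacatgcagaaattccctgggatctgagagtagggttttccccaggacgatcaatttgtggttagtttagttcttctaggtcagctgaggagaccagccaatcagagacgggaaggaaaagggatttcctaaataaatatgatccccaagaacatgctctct
The Cxcl10 window held 1 response element core, 213 to 204 bases before the start, and 2 NF-kB matches, 159 to 150 and 103 to 94 bases before it, and no motif overlapped another. The Cxcl9 window held no match to these letters. Of 32851 mouse promoter windows of the same length, 2.98% held the response element core, 3.90% the NF-kB consensus and 7.02% the gamma-activated sequence. RefSeq's table used here had no entry for Cxcl11.

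Very few transcripts differed between anti-CXCL10 and control antibody. Of 14385 genes tested with limma, 2 passed (Benjamini-Hochberg adjusted p under 0.05; 0.0139% of those tested), both lower with anti-CXCL10, and none was higher. The 2 were Cav1, which encodes caveolin-1, the main coat protein of the plasma membrane invaginations called caveolae, and the gene model Gm28062. At an unadjusted p under 0.05, 979 genes differed (6.81%), 402 higher (2.79%) and 577 lower (4.01%). Groups did not overlap for 364 genes (2.53%), 133 of them higher (0.925%) and 231 lower (1.61%). The median gene differed by -0.01 on the log2(FPKM + 1) scale, which is used for every log2 value here and understates the change of low genes. At the median gene, the 95% interval of the difference reached 0.297 to either side, and 113 genes differed by 1 or more in either direction. For any named gene that did not pass, the values therefore describe these 9 tumors. The interval gives the size of difference left possible when the spread is pooled over all 4 groups. That spread was unequal for some genes. Ciita, described below, had an SD of 0.642 FPKM with control antibody and 0.292 FPKM with anti-CXCL10. With GSK343 its SD was 2.81 and 0.832 FPKM in the same order. Where a GSK343 group varied more, the interval can be wider than the 9 libraries alone would give.

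**Figure D1:**
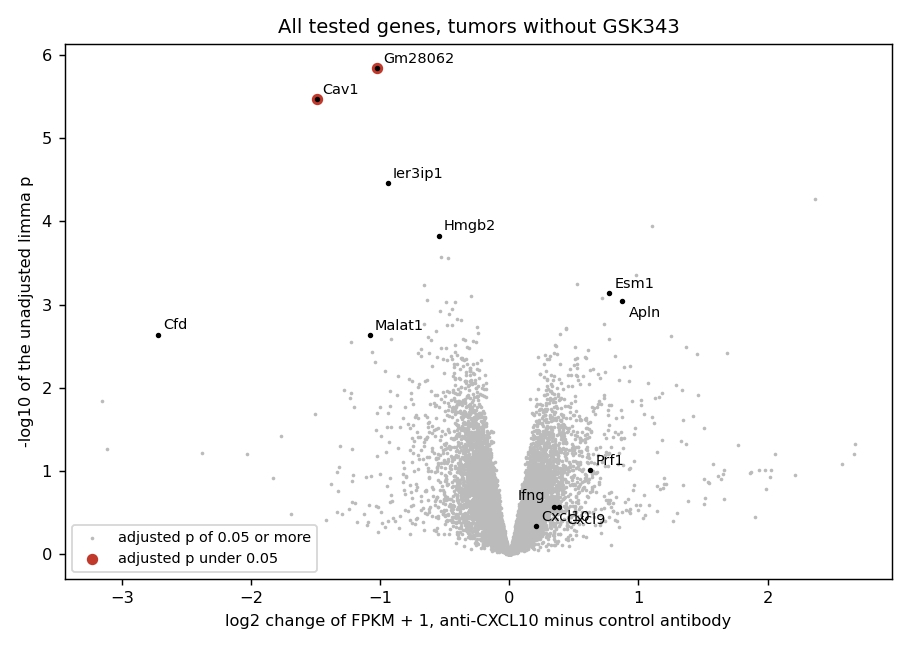
Each point is 1 of the 14385 tested genes; the x axis is the log2 difference of FPKM + 1 between anti-CXCL10 and control antibody, and the y axis is -log10 of limma's unadjusted p. Only Cav1 and Gm28062, both on the lower side, passed the adjusted threshold (large points), and Cxcl10, Cxcl9 and Ifng lie near the bottom.

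Cav1 (ENSMUSG00000007655, plus strand of chromosome 6, 17306335 to 17341452, coordinates of the deposited table on GRCm38) was the protein-coding gene that fell. It had 8.16, 14.0, 9.32 and 13.6 FPKM in control replicates 1, 2, 3 and 5, and 2.63, 2.71, 2.51, 3.53 and 5.60 FPKM in anti-CXCL10 replicates 1 to 5. Every anti-CXCL10 library lay under every control library. The mean went from 11.2 ± 2.94 (SD, n = 4) to 3.40 ± 1.3 FPKM (SD, n = 5), a log2 difference of -1.49 ± 0.23 (SE; 95% interval -1.96 to -1.02; limma adjusted p = 0.0244). The exact two-sided permutation test of the gene alone gave p = 0.00794, the smallest that 4 against 5 libraries allow. It was added after the values of Cav1 were seen, so it is not separate evidence. Groups without overlap put this p at or near its floor, and 364 genes (2.53%) had such groups. In bulk tumors, fewer cells that express a gene and less RNA per cell cannot be told apart.

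No other gene of the caveolar coat passed. Cav2, which encodes caveolin-2 and lies close to Cav1 on chromosome 6, averaged 34.4 FPKM with control antibody and 38.4 FPKM with anti-CXCL10 (0.13, limma adjusted p = 0.872). The cavin genes, whose products coat caveolae from the cytosol, were Ptrf at 84.3 and 76.6 FPKM (-0.14, adjusted p = 0.752), Sdpr at 24.5 and 27.3 FPKM (0.14, adjusted p = 0.889) and Prkcdbp at 62.4 and 56.6 FPKM (-0.15, adjusted p = 0.831). Cav1 was the 1 gene of these 5 that passed. Endothelial cells, fibroblasts, adipocytes and muscle are rich in caveolae. The mean log2(FPKM + 1) of 29 endothelial and angiogenesis genes ranged from 2.73 to 3.05 in control libraries and from 2.80 to 3.45 with anti-CXCL10, that of 36 fibroblast and matrix genes from 4.51 to 5.08 and from 4.35 to 4.76, that of 8 adipocyte markers from 3.65 to 4.69 and from 3.19 to 3.93, and that of 22 skeletal muscle markers from 1.41 to 2.46 and from 0.846 to 3.69. All 4 of these marker levels overlapped between the groups, and their part in the Cav1 difference was not tested.

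Gm28062 (ENSMUSG00000100725, chromosome 1, 178323074 to 178337728) has no annotated function and covers the locus of Hnrnpu, which encodes an RNA-binding nuclear protein. Its values were 313, 315, 241 and 284 FPKM in the control libraries and 178, 109, 122, 136 and 171 FPKM with anti-CXCL10. The groups did not overlap, and the log2 difference was -1.02 ± 0.15 (limma adjusted p = 0.0208). Hnrnpu itself had 84.9, 79.4, 28.7 and 24.8 FPKM in the control libraries and 71.4, 62.7, 77.3, 48.8 and 56.7 FPKM with anti-CXCL10, a difference of 0.41 (adjusted p = 0.776). Hnrnpu was low in control replicates 3 and 5 only. The sources used here do not say how fragments in the shared stretch were divided between the 2 genes, so the level of Gm28062 is uncertain.

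Whether the 2 genes passed depended on single libraries, while their differences stayed negative. Without control replicate 2 or 5, or anti-CXCL10 replicate 2, 3 or 4, 0 genes passed. Without control replicate 3, only Gm28062 passed. Without control replicate 1 the passing genes were Cav1 and 1600012H06Rik, and without anti-CXCL10 replicate 1 they were Gm28062 and Ier3ip1. Over the 30 settings run, Cav1 passed in 21 (adjusted p 0.00787 to 0.211) with a difference of -1.73 to -1.38, and Gm28062 passed in 22 (0.0046 to 0.231) with a difference of -1.11 to -0.93. These settings include leaving out each GSK343 library, which cannot move the difference, and both genes passed in every such fit. With 1 library of the compared groups left out, Cav1 passed only without control replicate 1 or anti-CXCL10 replicate 5. Gm28062 then passed only without control replicate 3 or anti-CXCL10 replicate 1 or 5. When the 9 libraries were fitted alone, without the GSK343 groups, neither passed and 1 other gene, Pcdhb17, did.

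**Figure D2:**
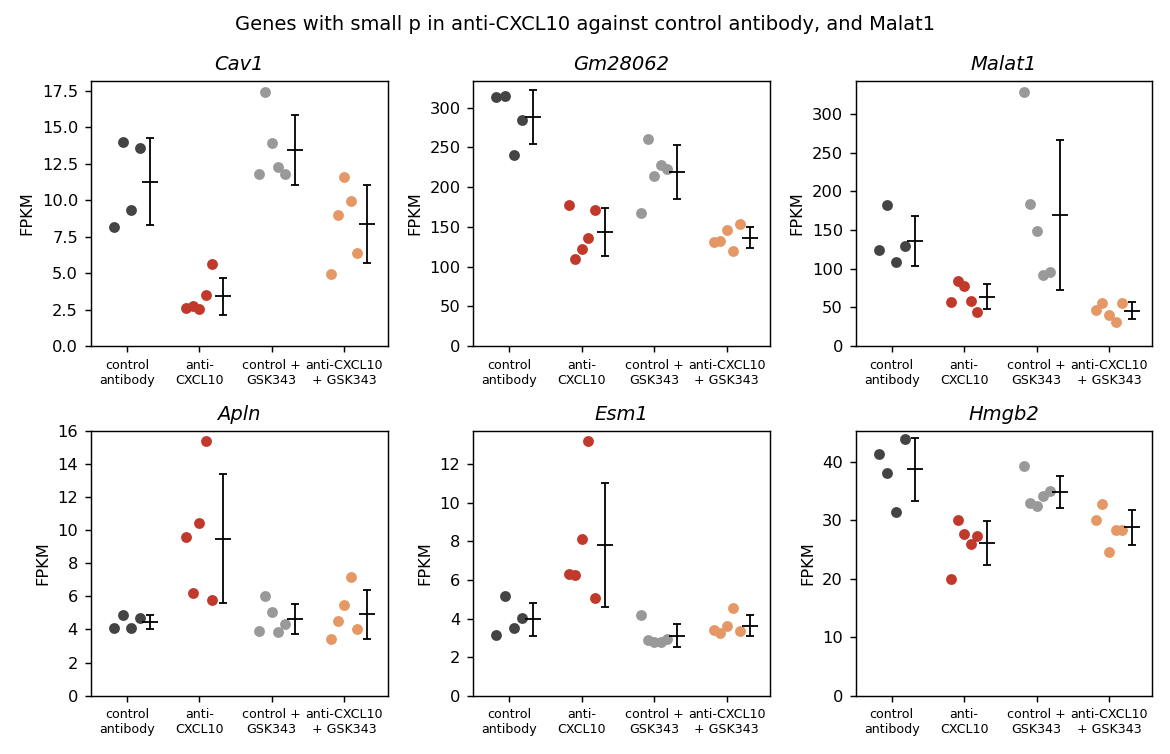
Points are FPKM of single libraries in the 4 groups, and the bar beside each group is the mean ± SD, for Cav1, Gm28062, Malat1, Apln, Esm1 and Hmgb2. Without GSK343 the groups are apart for each of these but Esm1, where the lowest anti-CXCL10 library (5.07) lies under the highest control library (5.15); of the 6, Cav1 and Gm28062 passed.

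The antibody's own pathway came next. Of 22 genes picked for the question, 18 were measured, and 0 passed in this comparison; Ezh2 was the 1 gene with an unadjusted p under 0.05. Ncr1, Klrb1c, Adgre1 and Foxp3 were not analysed here. The smallest adjusted p of any of the 18 over 29 settings was 0.522. Of the 18, 11 were higher and 7 lower with anti-CXCL10, and none had groups without overlap.

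Among the ligands, Cxcl10 (ENSMUSG00000034855, minus strand of chromosome 5, 92346638 to 92348889) had 73.1, 112, 123 and 79.2 FPKM in the control libraries. With anti-CXCL10 it had 155, 66.5, 126, 153 and 77.9 FPKM. Anti-CXCL10 replicates 1, 3 and 4 lay above all control libraries and replicate 2 lay below all of them. The means were 96.9 ± 24.5 (SD, n = 4) and 116 ± 41.5 FPKM (SD, n = 5), a difference of 0.20 ± 0.27 (95% interval -0.36 to 0.77; limma adjusted p = 0.881). The interval holds both a fall and a rise of the transcript. Leaving out single libraries moved the difference from 0.08 (without control replicate 1, or anti-CXCL10 replicate 1 or 4) to 0.38 (without anti-CXCL10 replicate 2). Cxcl10 lies within the span of Art3, and which fragments were assigned to which gene is not given.

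Cxcl9, the neighbouring ligand, had 44.8, 63.4, 90.2 and 43.6 FPKM with control antibody and 98.1, 38.5, 87.1, 120 and 62.7 FPKM with anti-CXCL10. Replicate 3 was highest among the controls for both ligands, and with anti-CXCL10 replicates 1, 3 and 4 were the highest and replicate 2 the lowest for both. The difference of Cxcl9 was 0.38 ± 0.34 (95% interval -0.33 to 1.09; limma adjusted p = 0.830), and it was 0.22 without anti-CXCL10 replicate 4 and 0.62 without anti-CXCL10 replicate 2. Cxcl11, the remaining ligand, is annotated as a polymorphic pseudogene in GENCODE and was near 1 FPKM, with 0.205 to 1.99 FPKM in control libraries and 0.124 to 1.72 FPKM with anti-CXCL10. Its difference of -0.01 ± 0.43 had no stable sign.

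The receptor Cxcr3 was low throughout, at 0.512, 1.16, 0.820 and 0.768 FPKM with control antibody and at 1.07, 0.701, 0.880, 1.24 and 0.858 FPKM with anti-CXCL10. The groups overlapped, with a difference of 0.11 ± 0.24 (limma adjusted p = 0.944). Dpp4, which encodes a protease that trims CXCL10, differed by 0.09 (1.02 and 1.16 FPKM, adjusted p = 0.962). The atypical receptors Ackr1 (0.466 and 0.738 FPKM, 0.24) and Ackr3 (3.71 and 2.77 FPKM, -0.29) did not pass either. Of the 8 measured genes of the CXCR3 axis 5 were higher and 3 lower, with a median of 0.10.

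Ifng, which encodes the interferon that induces all 3 ligands, had 2.25, 2.23, 3.62 and 2.34 FPKM with control antibody and 5.05, 2.61, 4.14, 3.69 and 2.65 FPKM with anti-CXCL10. All 5 anti-CXCL10 libraries lay above the control mean, replicate 2 only just, but control replicate 3 was above 2 of them. The difference was 0.35 ± 0.30 (95% interval -0.29 to 0.99; limma adjusted p = 0.828). Downstream, Irf1, a transcription factor induced early by interferon, differed by -0.45 ± 0.42 (133 and 105 FPKM, adjusted p = 0.839), with anti-CXCL10 replicates 2 and 5 at 62.8 and 61.2 FPKM, under the lowest control library at 118 FPKM. Irf1 was therefore lower on average while Ifng was higher, and neither passed.

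**Figure D3:**
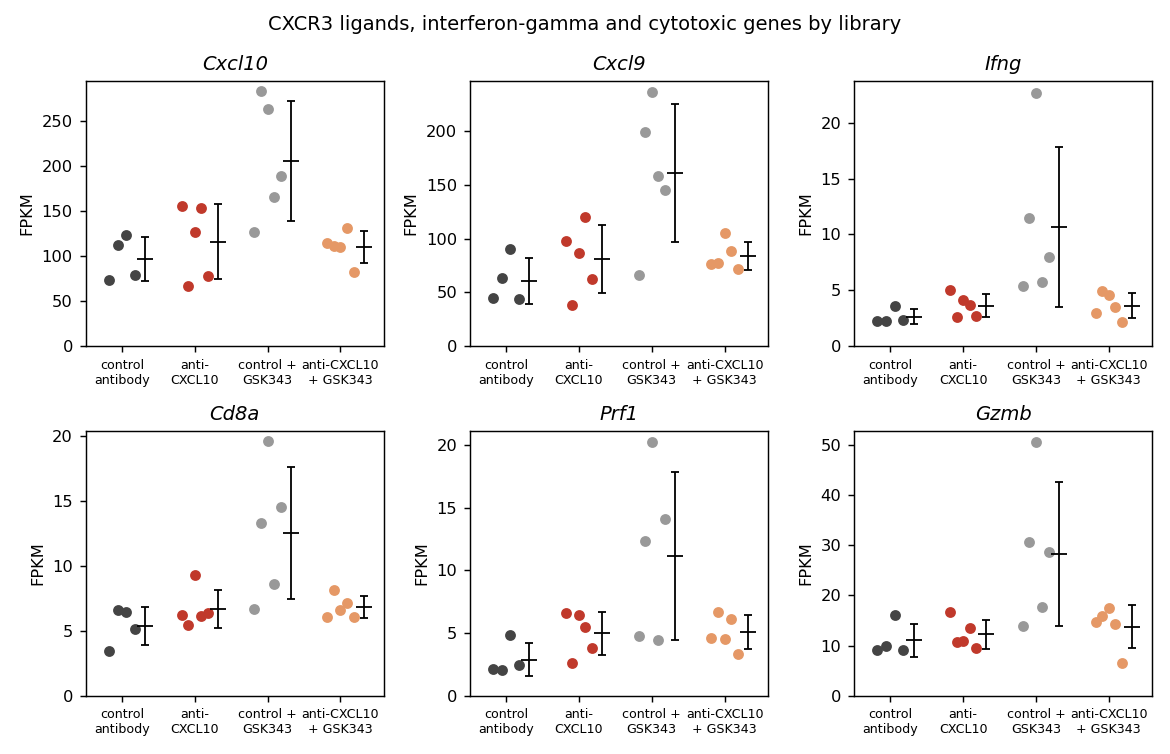
FPKM of single libraries (points) with the group mean ± SD (bar) for Cxcl10, Cxcl9, Ifng, Cd8a, Prf1 and Gzmb in the 4 groups. Without GSK343 the 2 antibody groups overlap for every gene shown, and the widest spread is among the libraries given control antibody plus GSK343.

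Most members of the wider interferon-gamma response were somewhat higher with anti-CXCL10, though none passed. Of 34 listed genes 33 were tested, and 27 of the 33 (81.8%) were higher with anti-CXCL10, against 46.9% of all tested genes. Their median difference was 0.32, against -0.01 for all genes. At an unadjusted p under 0.05 there were 5 members, all higher, beside 2.79% of all tested genes that were higher at that p. Members of such a list are induced together, so the count is a description of these libraries. The list's mean log2(FPKM + 1) was 4.99 to 5.63 in the control libraries (median 5.19) and 5.07 to 5.86 with anti-CXCL10 (median 5.70), and the groups overlapped.

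The members of smallest p were interferon-induced GTPases of the defense against intracellular pathogens. Irgm1 had 94.1, 108, 125 and 83.3 FPKM with control antibody and 172, 103, 142, 144 and 128 FPKM with anti-CXCL10. Anti-CXCL10 replicates 1, 3, 4 and 5 lay above every control library and replicate 2 did not (0.42 ± 0.17, limma adjusted p = 0.684). Iigp1 went from 106 ± 23.6 to 153 ± 19.7 FPKM (0.54, adjusted p = 0.684). Tgtp1 and Tgtp2, near-identical copies whose fragments could be split between them, averaged 76.3 and 120 FPKM (0.65), and 71.8 and 114 FPKM (0.65). In the signalling chain itself, 11 of 13 genes were higher (median 0.11). Ciita, the master regulator of MHC class II genes, had 2.41, 3.45, 3.68 and 2.52 FPKM in control libraries and 4.83, 4.70, 4.86, 4.22 and 4.33 FPKM with anti-CXCL10. The groups did not overlap, but the difference of 0.49 ± 0.23 did not pass (adjusted p = 0.730). Irf8, a transcription factor of myeloid cells, averaged 40.6 and 51.1 FPKM (0.34, adjusted p = 0.700).

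Of 37 tested genes of the type I interferon list 23 were higher (62.2%, against 46.9% of all tested genes), with a median of 0.10. At an unadjusted p under 0.05 there were 2, both higher, where 2.79% of all tested genes were higher and 6.81% differed in either direction. Ifih1, which encodes the RNA sensor MDA5, had 2.91, 5.54, 3.87 and 5.09 FPKM with control antibody and 9.80, 8.57, 7.79, 6.21 and 5.64 FPKM with anti-CXCL10. The groups were apart by a narrow gap (0.69 ± 0.26, limma adjusted p = 0.684). Ddx58, which encodes the related sensor RIG-I, averaged 23.3 and 27.4 FPKM (0.23, adjusted p = 0.700). MHC class I presentation genes were higher in 20 of 26 (median 0.06) and MHC class II genes in 10 of 12 (median 0.04), and none had an unadjusted p under 0.05.

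The cells that carry CXCR3 showed no passing marker. Of 26 T cell markers 15 were higher (57.7%, against 46.9% of all tested genes), with a median of 0.03. At an unadjusted p under 0.05 there was 1, which was higher, where 2.79% of all tested genes were higher and 6.81% differed in either direction. Cd3e, a subunit of the T cell receptor complex, had 4.33, 6.97, 6.48 and 7.10 FPKM with control antibody and 7.86, 5.67, 10.6, 6.48 and 6.24 FPKM with anti-CXCL10. The groups overlapped (0.20 ± 0.22, limma adjusted p = 0.849). Cd8a, of the cytotoxic lineage, averaged 5.40 and 6.68 FPKM (0.28 ± 0.23, 95% interval -0.21 to 0.76, adjusted p = 0.824). Its partner Cd8b1 (5.17 and 5.05 FPKM, -0.02) and the helper lineage gene Cd4 (1.83 and 1.67 FPKM, -0.05) were nearly level. Cd69, an early activation marker and the member of smallest p, averaged 1.07 and 2.08 FPKM (0.55, adjusted p = 0.700). Regulatory T cell markers were higher in 2 of 6, with a median of -0.10.

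Cytotoxic effectors were higher in 12 of 16, with a median of 0.16 and none at an unadjusted p under 0.05. Prf1, which encodes the pore-forming protein perforin, had 2.12, 2.07, 4.86 and 2.44 FPKM with control antibody and 6.56, 2.65, 6.40, 5.48 and 3.77 FPKM with anti-CXCL10. Anti-CXCL10 replicates 1, 3 and 4 lay above all control libraries, while control replicate 3 lay above the remaining 2. The difference was 0.63 ± 0.36 (95% interval -0.13 to 1.38; limma adjusted p = 0.752), and the exact two-sided permutation test of the gene alone gave p = 0.0873. The granzyme genes Gzmb (11 and 12.3 FPKM, 0.15 ± 0.31, adjusted p = 0.940) and Gzma (4.07 and 3.83 FPKM, -0.05 ± 0.29, adjusted p = 0.984) did not follow. NK cell markers were higher in 9 of 12 (median 0.07), with Klrd1, a subunit of NK receptors, at 6.02 and 9.27 FPKM (0.60, adjusted p = 0.700). Immune checkpoint genes were higher in 11 of 17 (median 0.05), and Cd274, which encodes PD-L1, was level at 19.4 FPKM in both groups (-0.02 ± 0.22, adjusted p = 0.989).

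Myeloid and B lineage markers differed in direction and did not pass. Macrophage markers were higher in 23 of 31, with a median of 0.16. Gpnmb, a glycoprotein of lipid-loaded macrophages, had 45.7, 50.7, 51.4 and 42.8 FPKM with control antibody and 79.6, 55.1, 67.6, 70.7 and 54.5 FPKM with anti-CXCL10. The groups did not overlap (0.44 ± 0.12, limma adjusted p = 0.684). Cd14, also on the macrophage list, went the other way, at 18.74 and 13.55 FPKM (-0.38, adjusted p = 0.700), and its groups overlapped. Gpnmb and Cd14 were the only members with an unadjusted p under 0.05, where 6.81% of all tested genes differed. Neutrophil markers were lower in 9 of 11 (median -0.34), among them S100a9 at 29.2 and 15.8 FPKM (-0.71, adjusted p = 0.752; -0.35 without control replicate 3, which had 54.6 FPKM). B and plasma cell markers were lower in 12 of 14 (median -0.43). Igkc, the constant region of the kappa light chain, had 16.0, 2.09, 172 and 62.2 FPKM with control antibody and 11.8, 2.54, 4.01, 18.0 and 2.20 FPKM with anti-CXCL10. Control replicates 3 and 5 were far above all other libraries (-2.03 ± 1.02, adjusted p = 0.733; -1.15 without control replicate 3 and -3.09 without control replicate 2). The same 2 libraries were highest for Ighm, at 48.3 and 42.8 FPKM, against 4.37 and 5.15 FPKM in the other controls and 4.28 to 14.5 FPKM with anti-CXCL10.

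Chemokines outside the CXCR3 axis leaned lower: 10 of 12 CXC chemokines were lower (median -0.23), while the CC and C chemokines were divided, with 9 higher and 12 lower (median -0.02). Cxcl14, a chemokine of epithelia and fibroblasts, had 10.8, 14.8, 8.43 and 11.2 FPKM with control antibody and 6.52, 6.09, 4.69, 5.33 and 4.28 FPKM with anti-CXCL10. Its groups did not overlap, yet the difference of -0.94 ± 0.43 did not pass (limma adjusted p = 0.715). That SE draws on all 4 groups, and libraries given control antibody plus GSK343 had 4.96, 6.79, 7.25, 46.7 and 21.9 FPKM. Cxcl5, which attracts neutrophils, averaged 8.58 and 6.69 FPKM, also without overlap (-0.32, adjusted p = 0.700). Il6, the member of smallest p among 25 inflammatory cytokine and NF-kB genes, was at 16.1 FPKM in control replicate 3 and between 0.536 and 2.04 FPKM in the other 8 libraries. Its mean difference (-1.0, adjusted p = 0.700) was -0.32 without that library.

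Genes of new blood vessels were among those of smallest p on the higher side. Of 29 endothelial and angiogenesis genes 22 were higher with anti-CXCL10 (75.9%, against 46.9% of all tested genes), with a median of 0.14, and 4 had an unadjusted p under 0.05, all higher, beside 2.79% of all genes. Apln, which encodes the vessel growth peptide apelin, had 4.10, 4.89, 4.06 and 4.71 FPKM with control antibody and 9.60, 6.23, 10.4, 15.4 and 5.76 FPKM with anti-CXCL10. Every anti-CXCL10 library was higher than every control library, but the difference of 0.87 ± 0.22 did not pass (95% interval 0.41 to 1.33; limma adjusted p = 0.684). Esm1, a secreted product of sprouting endothelial tip cells, had 3.15, 5.15, 3.51 and 4.03 FPKM with control antibody and 6.31, 6.26, 8.14, 13.2 and 5.07 FPKM with anti-CXCL10. It differed by 0.78 ± 0.19 (adjusted p = 0.684), with 1 control library inside the anti-CXCL10 range. Replicate 4 of anti-CXCL10 was highest for both genes, and also for Angpt2 (22.1 FPKM against 12.3 to 14.9 in its group) and Dll4 (4.47 FPKM against 1.90 to 2.66), which encode a regulator of vessel stability and a Notch ligand of tip cells. The general endothelial marker Pecam1 averaged 12.6 and 15.1 FPKM (0.22 ± 0.18, adjusted p = 0.809).

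The other named genes of smallest p on the higher side each had an adjusted p of 0.684 and did not pass. Sun2, a nuclear envelope protein, averaged 8.42 and 14.4 FPKM (0.74), and Gng12, a G protein subunit, 23.6 and 38.8 FPKM (0.77). Tdg, a DNA repair glycosylase, averaged 7.32 and 12 FPKM (0.61). Tada3 (0.44), Pon3 (0.39), Slc38a10 (0.36) and Vipas39 (0.35) completed the 10. For Pon3 the control libraries had 25.1 to 27.3 FPKM and the anti-CXCL10 libraries 28.9 to 38.8 FPKM, without overlap.

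On the lower side after Cav1 came Ier3ip1, a protein of the secretory pathway. It had 78.1, 68.7, 81.6 and 79.6 FPKM with control antibody and 73.6, 32.9, 33.8, 37.2 and 31.2 FPKM with anti-CXCL10. Replicate 1 of anti-CXCL10 lay among the controls, while the other 4 lay between 31.2 and 37.2 FPKM (-0.94 ± 0.17, limma adjusted p = 0.167). Hmgb2, a chromatin protein of dividing cells, had 41.4, 38.1, 31.5 and 44.0 FPKM with control antibody and 19.9, 30.0, 27.7, 25.9 and 27.4 FPKM with anti-CXCL10. Its groups did not overlap (-0.55 ± 0.11, adjusted p = 0.356). Reep4 (-0.53) and Dpysl2 (-0.48) both had an adjusted p of 0.491. The histone genes Hist1h2ap (10.4 and 6.32 FPKM, -0.66) and Hist1h2ao (10.6 and 6.56 FPKM, -0.64) are near-identical copies, so their fragments could be shared. Cdv3 (-0.30), Zcchc9 (-0.42) and Rassf8 (-0.49) followed, each with an adjusted p of 0.684.

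Several lists of cell growth leaned lower by small amounts, and no member passed. DNA replication genes were lower in 24 of 31 (median -0.13), and all 7 with an unadjusted p under 0.05 were lower, beside 4.01% of all tested genes that were lower at that p. Pcna, the sliding clamp of DNA polymerase, had 103, 92.5, 97.4 and 129 FPKM with control antibody and 80.9, 66.7, 81.5, 94.6 and 92.7 FPKM with anti-CXCL10. The groups overlapped in 2 anti-CXCL10 libraries (-0.34 ± 0.10, limma adjusted p = 0.684). Mitotic genes were lower in 22 of 28 (median -0.09), with Birc5, which encodes survivin, at 56.5 and 42.5 FPKM (-0.42). Library levels of both lists overlapped. The mean log2(FPKM + 1) of replication genes was 4.05 to 4.21 with control antibody and 3.87 to 4.18 with anti-CXCL10. That of mitotic genes was 4.20 to 4.49 and 4.02 to 4.37. Histone genes were lower in 15 of 17 (median -0.12). Ezh2, the target of the drug used elsewhere in the series and the catalytic subunit of Polycomb repressive complex 2, had 31.8, 31.9, 25.0 and 29.9 FPKM with control antibody and 25.3, 26.3, 26.5, 22.3 and 24.5 FPKM with anti-CXCL10. Control replicate 3 lay inside the anti-CXCL10 range, and the difference of -0.24 ± 0.10 did not pass (adjusted p = 0.700), although the exact two-sided permutation test of the gene alone gave p = 0.0397.

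Cholesterol and fatty acid synthesis genes were lower in 24 of 29, with a median of -0.19, and 9 of the 29 had an unadjusted p under 0.05, all lower, where 4.01% of all tested genes were lower at that p and 46.9% of all genes were higher. Fdps, which makes farnesyl diphosphate, had 93.7, 88.2, 91.9 and 94.4 FPKM with control antibody and 71.9, 59.5, 81.1, 71.2 and 86.6 FPKM with anti-CXCL10. The groups did not overlap (-0.32 ± 0.11, limma adjusted p = 0.684). Mvd, of the same mevalonate pathway, averaged 7.91 and 5.93 FPKM (-0.37), and Hmgcs1, which acts at its entry, 47.3 and 36.5 FPKM (-0.39). The synthesis list's mean log2(FPKM + 1) was 4.47 to 4.61 in control libraries and 4.11 to 4.48 with anti-CXCL10, a narrow overlap. Oxidative phosphorylation subunits were lower in 35 of 46 (median -0.11), with Cox5a at 236 and 189 FPKM (-0.33). Their mean log2(FPKM + 1) was 6.90 to 7.03 in control libraries and 6.52 to 7.08 with anti-CXCL10. Only anti-CXCL10 replicates 1 and 2, at 6.775 and 6.524, lay below every control library. Hepatocyte and hepatoma genes were lower in 26 of 40 (median -0.12), and Apoc1, an apolipoprotein, averaged 40.4 and 23 FPKM (-0.78, adjusted p = 0.684), whereas hypoxia and glycolysis genes were higher in 19 of 29 (median 0.07). Among 16 heat shock chaperones, Hspa1a and Hspa1b, near-identical copies of the inducible HSP70 gene, averaged 6.74 and 16.5 FPKM (1.35), and 8.75 and 21.6 FPKM (1.42), while the list's median was -0.04. No chaperone passed. Control replicate 2, at 14.1 FPKM of Hspa1a and 19.6 FPKM of Hspa1b, lay above anti-CXCL10 replicates 2, 4 and 5 for both genes.

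**Figure D4:**
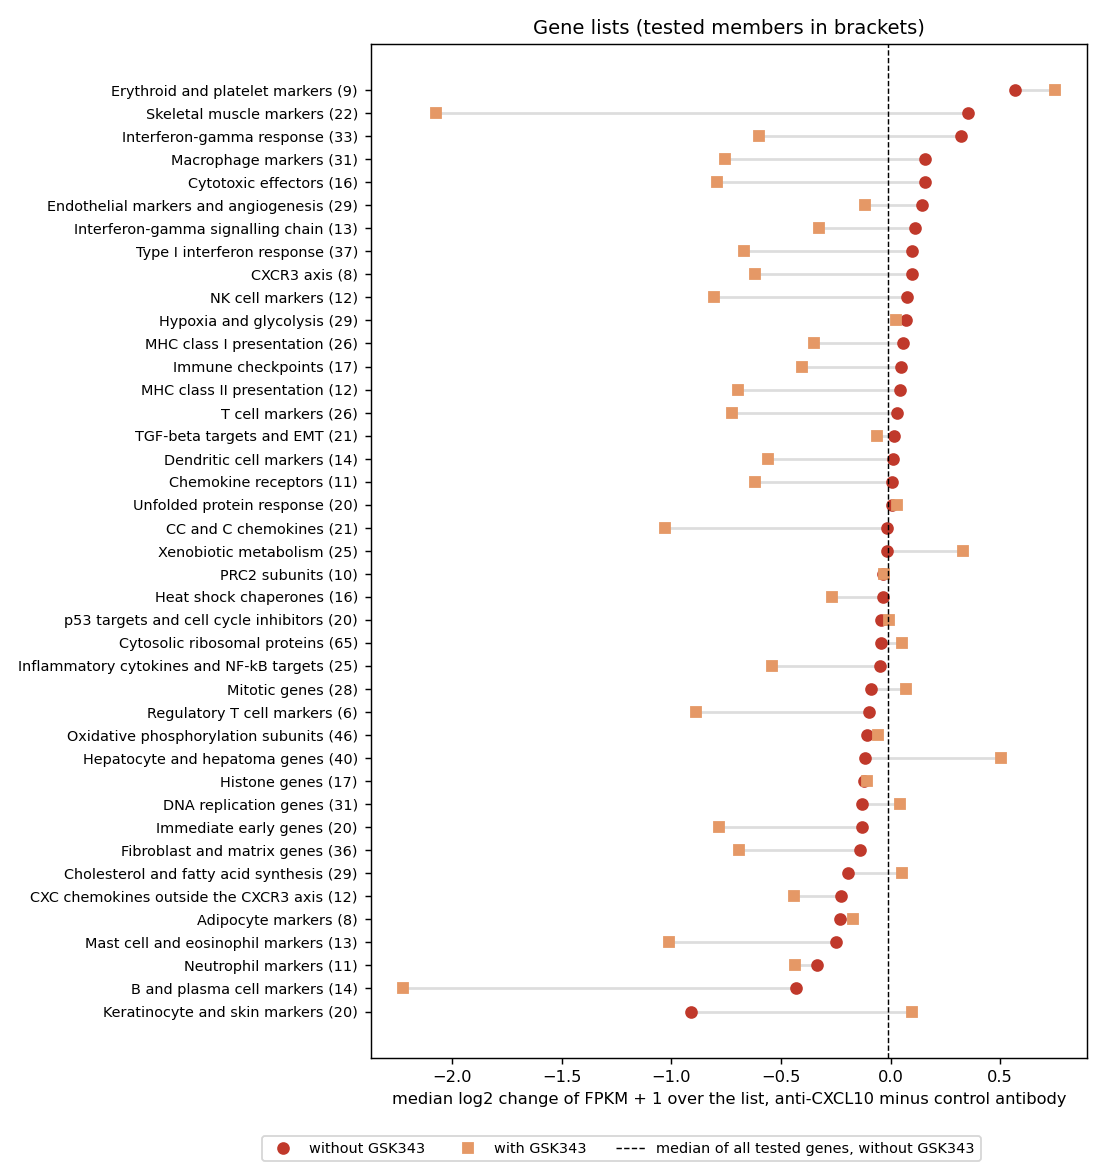
Each row is a gene list with its number of tested members, and the x axis is the median log2 difference of FPKM + 1 over the list between anti-CXCL10 and control antibody, without GSK343 (circles) and with it (squares). Without GSK343 most circles lie close to the dashed line at the median of all tested genes (-0.01); keratinocyte markers (-0.91) and erythroid markers (0.57) lie farthest from it.

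Markers of host tissue around the tumor set several libraries apart. The mean log2(FPKM + 1) of 20 keratinocyte and skin genes was 1.31, 4.75, 3.58 and 1.46 in the control libraries and 2.37, 3.92, 1.25, 1.23 and 1.40 with anti-CXCL10. It was high in control replicates 2 and 3 and in anti-CXCL10 replicate 2, and 18 of the 20 genes were lower on average with anti-CXCL10 (median -0.91) with none passing. Krt5, a keratin of the basal layer of skin, ranged from 1.62 to 63.5 FPKM in the control libraries and from 0.627 to 28.3 FPKM with anti-CXCL10. The mean of 22 skeletal muscle markers was 1.87, 1.90, 1.41 and 2.46 in the control libraries and 2.44, 0.846, 3.32, 3.69 and 1.09 with anti-CXCL10. Myh4, a fast muscle myosin, was listed at 0 in anti-CXCL10 replicates 2 and 5 and at 10.1 FPKM in replicate 4. The ranges of both marker sets overlapped between the groups.

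Adipocyte and blood markers varied by library too. Of 8 adipocyte markers 2 were higher and 6 lower with anti-CXCL10 (median -0.23), and none passed. Cfd, which encodes the adipocyte product adipsin, had 2.66, 2.77, 39.7 and 28.6 FPKM with control antibody and 0.969, 0.217, 1.07, 1.28 and 0.328 FPKM with anti-CXCL10. The groups did not overlap and control replicates 3 and 5 were far above the rest (-2.72 ± 0.76, limma adjusted p = 0.684), the 2 libraries that were also highest for Igkc and Ighm. Cd36, of the same list, went the other way, with 3.52 to 5.72 FPKM in control libraries and 5.5 to 11.6 FPKM with anti-CXCL10. Hbb-bt, a hemoglobin gene of red blood cells, ranged from 24 to 419 FPKM in the control libraries and from 80.0 to 873 FPKM with anti-CXCL10 (1.0 ± 0.93, adjusted p = 0.837). Fibroblast and matrix genes were lower in 25 of 36 (median -0.14), with the proteoglycan gene Bgn at 123 and 79.9 FPKM (-0.60, adjusted p = 0.700; -0.39 without control replicate 2). The part of these markers in the differences above was not tested.

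**Figure D5:**
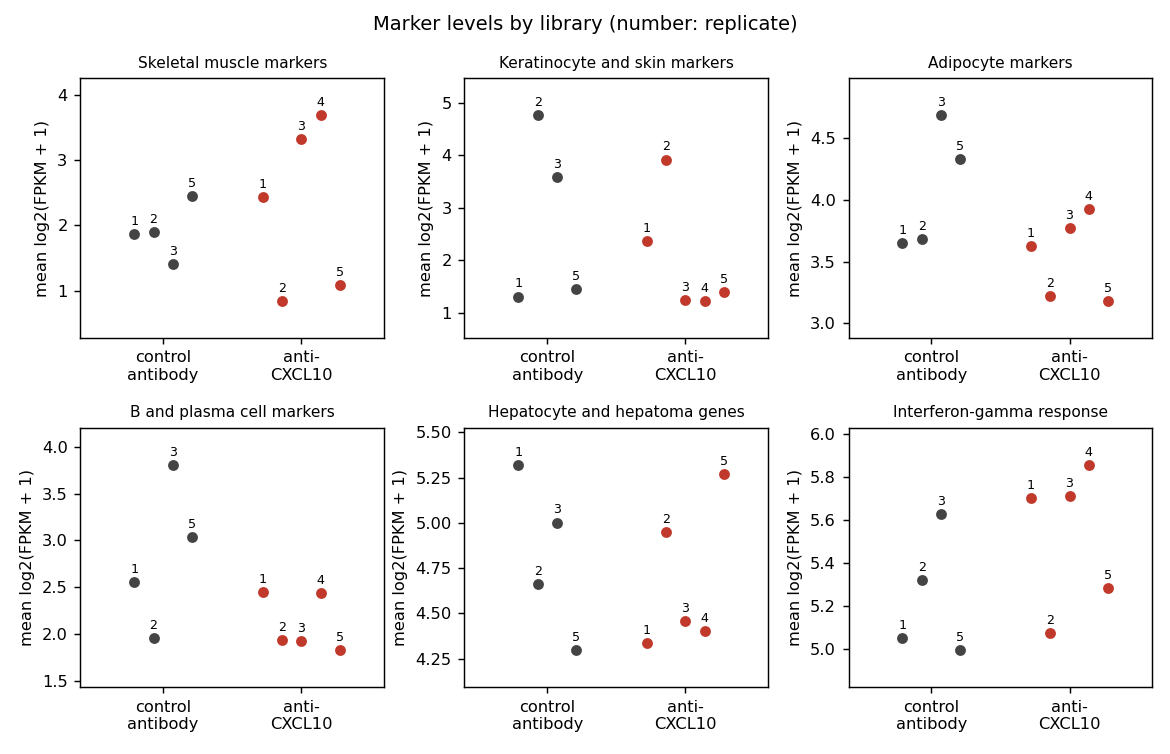
Each point is 1 library, numbered by its replicate, and the y axis is the mean log2(FPKM + 1) over the list. Keratinocyte markers are high in control replicates 2 and 3 and anti-CXCL10 replicate 2, muscle markers in anti-CXCL10 replicates 3 and 4, and the interferon-gamma response overlaps between the groups.

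The same antibody comparison in tumors that received GSK343 used 10 other libraries. There, 1456 of the 14385 genes passed in limma (10.1%), 501 higher (3.48%) and 955 lower (6.64%); quantile normalization gave 701 higher and 910 lower. That count was 932 and 861 without control plus GSK343 replicates 2 and 3, and 963 and 837 without anti-CXCL10 plus GSK343 replicates 1 and 5. Of the 18 measured key genes, 8 passed with GSK343, all lower, against 0 without it. Cxcl10 fell by 0.85 on the log2 scale (adjusted p = 0.0411) and Ifng by 1.19 (adjusted p = 0.0150), where the differences without GSK343 were 0.20 and 0.35 with adjusted p of 0.881 and 0.828. The difference between the 2 antibody differences was -1.06 ± 0.37 for Cxcl10, which did not pass (limma adjusted p = 0.222), and none of the 18 key genes passed that test.

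Over all genes, 9 passed the test of the difference between the antibody differences (0.0626%), all of them more negative with GSK343, and 1862 had an unadjusted p under 0.05 (12.9%; 5.11% higher and 7.83% lower). For these 9 the difference without GSK343 lay between -0.13 and 0.41. Ly9 (0.22 without and -1.21 with GSK343, limma adjusted p = 0.0252) and Cd48 (0.14 and -0.97, adjusted p = 0.0404) belong to the SLAM family of leukocyte receptors, and Ly9 overlaps Cd244. Ccl6 (0.12 and -1.80, adjusted p = 0.0489) encodes a myeloid chemokine and Alox5ap (-0.04 and -1.42, adjusted p = 0.0459) the activating protein of leukotriene synthesis. Dock2 (0.23 and -0.73, adjusted p = 0.0489) drives leukocyte migration. Trpv2, Themis2, AB124611 and AI662270 were the other 4. This count was unstable: it was 0 without control replicate 5, control plus GSK343 replicate 2, anti-CXCL10 replicate 3, or anti-CXCL10 plus GSK343 replicate 1 or 5, and 1 without control replicate 1 or anti-CXCL10 replicate 4. It was 3 to 5 without control replicate 2, control plus GSK343 replicate 3 or 4, anti-CXCL10 replicate 1, or anti-CXCL10 plus GSK343 replicate 2 or 4. It was 47 without control replicate 3, 57 without anti-CXCL10 replicate 5 and 476 without control plus GSK343 replicate 1.

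Gm28062 was the 1 gene that passed in both antibody comparisons. With GSK343 its difference was -0.67 (limma adjusted p = 0.00672). Cav1 averaged 13.4 and 8.37 FPKM with GSK343, with every anti-CXCL10 library again under every control library, and did not pass there (-0.66, adjusted p = 0.0564). Its antibody difference was not shown to depend on the drug (0.83 ± 0.31, adjusted p = 0.246). With GSK343, groups did not overlap for 8.77% of genes (4.12% higher, 4.65% lower), and without it for 2.53% (0.925% higher, 1.61% lower). Unrelated comparisons with these shares would also leave some genes apart in both. Groups without overlap in the same direction in both comparisons were seen for 29 of the 14385 tested genes. Of these, 16 were lower and 13 higher, with Dpysl2, Hist1h2ap and Hist1h2ao among the lower ones. Malat1, an abundant nuclear long non-coding RNA singled out after its values were seen, was another. It had 124, 182, 109 and 129 FPKM with control antibody and 56.9, 83.6, 78.1, 58.1 and 43.5 FPKM with anti-CXCL10 (-1.08 ± 0.31, adjusted p = 0.684), and it passed with GSK343 (169.6 and 45.9 FPKM, -1.73, adjusted p = 0.00231). Over all genes, the signs of the 2 antibody differences matched for 58.5%, and for 64.6% of the 1456 that passed with GSK343. Across genes, which are not independent replicates, the 2 differences had a Pearson correlation of 0.124 and a Spearman correlation of 0.232.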

How the data were processed

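The comparison, the genes and the lists were chosen with earlier results of these data known. Per the submitters' processing notes, the authors used StringTie 1.3.3b, HTSeq 0.6.0, TopHat2 2.1.0, Trimmomatic 0.33 and HISAT2 2.1.0 with builds GRCm38 and mm10. The sources used here do not give the role of each tool or the strand setting. Deposited values are FPKM per gene, a unit inferred from the values: length-weighted column sums varied by 0.790% (CV) and plain sums by 4.06%. No whole-read steps were found (best share 24.5% of low values within 0.05 of a whole number, 10% with no steps), so depth and counting error are unknown. The design text speaks of 3 replicates, and the labels number 5.

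The table held 14646 rows. Summing the 21 rows of 8 repeated gene IDs gave 14633 genes. Every row reached 1 FPKM in at least 4 libraries, so low genes appear to have been removed before deposit. Genes at 1 FPKM or more in at least 5 of 19 libraries were tested (14385), and 248 were left out. Of the IDs 99.3% were in GENCODE M21, 69.5% with the same span, and 3486 genes overlap another.

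The test was limma 3.58.1 on log2(FPKM + 1), run in R 4.3.3 with statmod 1.5.0 (trend, robust moderation, 4 group means, 19 libraries). It compared the antibodies without GSK343 and with it, and tested the difference of these differences. Adjusted p-values are Benjamini-Hochberg over all tested genes. Single genes were also compared by exact two-sided permutation. Levels of a list are means of log2(FPKM + 1) over its tested members. The 42 lists hold 1012 genes, 868 of them tested; mitochondrially encoded genes were not analysed here.

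Named genes are the 22 picked for the question, passing genes of at least 5 FPKM, the 10 of smallest p per direction (at least 5 FPKM), genes passing in both antibody comparisons, and up to 4 members of each list by p. Outside the picked genes and the lists, the rule leaves out pseudogenes, receptor segments and unnamed models such as Gm28062. Genes named outside that rule (Gm28062, Pcdhb17, 1600012H06Rik, Hnrnpu, the partners of Cav1, Malat1, Afp, and those of the test between the antibody differences) were chosen after their values were seen. Counts include a gene of that rule whose values are not reported here. Alternatives were pseudocounts of 0.1 and 0.5, no filter, other filters, the replicate block, only the compared groups in the fit, median-ratio scaling, quantile normalization, no trend or robust moderation, and leaving out each library.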

Additional observations from a re-analysis of the deposited data

Results flagged for a closer look

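In 7 of 76 groups checked among the named genes, 1 library lay far from the others by Dixon's test at the 95% level, which chance alone gives for about 1 in 20 groups. Control replicate 3 was that library for Ifng (3.62 FPKM, the other controls 2.23 to 2.34), Gzmb (16.0 FPKM, others 9.09 to 9.83) and Rassf8 (14.3 FPKM, others 18.9 to 19.8). It was highest of the controls for Ifng and Gzmb, which belong to the interferon and cytotoxic lists, and lowest for Rassf8.

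Among anti-CXCL10 libraries, replicate 2 had 2.51 FPKM of Cd4 (others 1.37 to 1.5) and replicate 5 had 11.5 FPKM of Cd274 (others 19.9 to 23.2). Replicate 1 had 73.6 FPKM of Ier3ip1 (others 31.2 to 37.2) and replicate 3 had 5.46 FPKM of Zcchc9 (others 6.96 to 7.52).

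For 9 genes the antibody difference with GSK343 was below that without it in limma's test of the difference itself, on the log2 scale: Ccl6 (-1.92), AB124611 (-1.71), Trpv2 (-1.67), Ly9 (-1.43), Alox5ap (-1.38), Cd48 (-1.10), AI662270 (-1.04), Themis2 (-0.97) and Dock2 (-0.96).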

How the results depend on the processing

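The count of 2 passing genes was 1 with the compared groups alone, 0 with the replicate block (limma adjusted p = 0.0831 for Cav1 and 0.114 for Gm28062) and 0 to 2 without single libraries; it stayed 2 under the other pseudocounts, filters, scalings and moderation. With GSK343 the count was 837 to 1829 without single libraries. The test between the antibody differences gave 57 genes with the replicate block and 0 to 476 without single libraries. Replicate numbers did not pair the samples: same-numbered deviations correlated at -0.18, 0.25, -0.02 and 0.02, and only number 2 matched itself best. Of 5458 recomputed values of named genes, 1859 under other settings and 3552 without single libraries kept direction and side of the threshold. The latter include fits without 1 GSK343 library, which cannot move these differences.

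Signs turned for the following genes, none of which passed. Cxcl11 was 0.0202 with the replicate block and 4.8e-05 under median-ratio scaling, and Ifi30 was 0.0145 under quantile normalization. Leaving out single libraries gave ranges of -0.21 to 0.23 for Cxcl11, -0.23 to 0.13 for Cd4, -0.17 to 0.0681 for Cd8b1, -0.25 to 0.10 for Gzma, -0.11 to 0.15 for Cd274, -0.0109 to 0.17 for Lrrc32, -0.0042 to 0.45 for Cadm1, -0.0769 to 0.31 for Ctss, -0.12 to 0.18 for H2-Aa and -0.18 to 0.0318 for Ifi30. The cause of these changes was not tested. Unknown depth and 4 control libraries limit the precision, and the S numbering, which restarts with the antibody, cannot be told apart from it.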
